A study of Mus musculus with 9 samples.

Results

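The transcripts described here are the mitochondrially encoded mRNAs of the ND subunits of respiratory complex I (ND1, ND2, ND3, ND4, ND4L, ND5 and ND6) and of cytochrome b (CYTB), as measured in RNA from the embryonic mouse cortex. They were found by exact gene symbol in the array's annotation, and all 8 named genes were present, each with 1 row of its own, among 22180 genes with a row of their own. RNA came from wild-type CD1 cortices taken at embryonic days 12 to 13 and was hybridised as 3 kinds of sample, each with 3 arrays labelled as biological replicates. The first was RNA bound in a precipitate made with a rabbit antibody to Pumilio2 (Pum2), an mRNA-binding repressor of translation. The second was RNA from a precipitate made with normal rabbit IgG, the background of the method, and the third was total input RNA with no antibody. All 9 samples share the same strain, genotype and stage, and the labels do not say how many embryos or litters went into each, so p-values measure only the spread between these arrays. The genes were chosen by their symbols and function with their low values in Pum2 over IgG and over input already known. For these 8 transcripts the differences that involve Pum2 arrays are therefore given as a description, and a test is read only for IgG over input. Nuclear genes of the same complexes were tested in all comparisons, though their lists too were chosen with earlier results of these data known.

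Mitochondria carry a small circular genome that is copied into long RNAs from both strands and cut into separate mRNAs, rRNAs and tRNAs, mostly at the tRNAs that lie between the genes. The mRNAs are translated inside the organelle by its own ribosomes. The ND proteins form the membrane arm of complex I, which takes electrons from NADH and pumps protons, and cytochrome b is the core subunit of complex III, the next proton pump of the chain. ND6 is the only mRNA copied from the opposite strand to that of all the others, and ND4L and ND4 are carried on a single mRNA.

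RefSeq (GRCm38.p6) lists 37 mitochondrial genes, of which 13 encode proteins. Besides the 8 described, COX1 and COX3, subunits of cytochrome c oxidase, had a row of their own, and no mitochondrial rRNA or tRNA did. Signals are log2 values, and the median gene lay at 6.08 over all arrays. Signals of different rows depend on their probes, so the signals of different rows are not read as relative amounts of RNA. Near-identical copies of mitochondrial genes lie in the nuclear genome, and the probes of these rows could also detect RNA from such copies. As a check of the tissue, 10 of 11 measured markers of cortical precursors and neurons lay above the median gene in input. The forebrain regulators Emx2 and Pax6, for example, had input signals of 9.27 to 9.52 and 9.49 to 9.52. In bulk RNA, fewer cells of a type and less RNA per cell cannot be told apart.

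In the Pum2 precipitate all 8 transcripts were lower than in IgG and than in input, and no Pum2 array overlapped an IgG or input array for any of them. The 7 transcripts other than ND6 were 7.70-fold to 21.5-fold lower than in IgG, and ND6 was 2.39-fold lower. The median difference of the 8 was -3.38 over IgG and -3.27 over input (log2), beside 0.04 and 0.07 over all genes. All 8 passed the threshold of the fit over all genes as lower in both comparisons (limma, Benjamini-Hochberg adjusted p under 0.05), where 11.4% of all genes were called lower over IgG and 13.1% over input. Groups did not overlap for 41.3% of all genes over IgG and for 45.3% over input. The comparisons share the Pum2 arrays, and nothing is read from these counts, since the values were known when the genes were chosen.

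**Figure D1:**
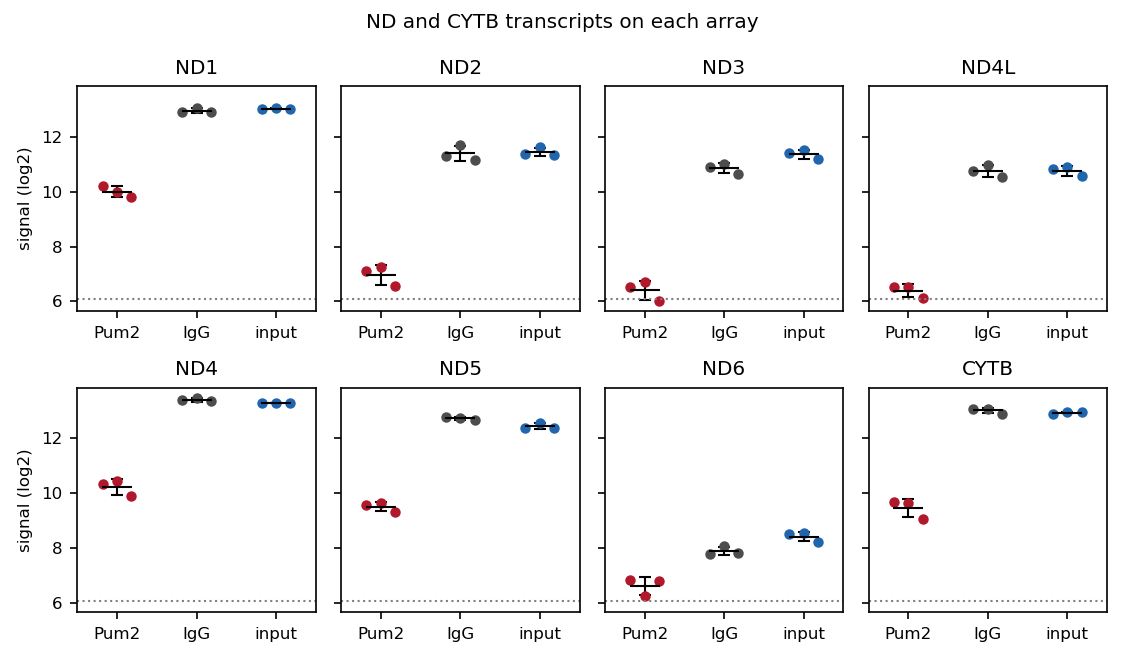
Log2 signal of each transcript on the 9 arrays, with Pum2 precipitates on the left of each panel, IgG precipitates in the middle and input on the right; points are arrays, bars are means ± SD (n = 3), and the dotted line is the median gene at 6.08. In every panel the 3 Pum2 arrays lie below all IgG and input arrays, and the gap is smallest for ND6.

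ND2, ND3 and ND4L formed the group with the lowest differences. ND3, a small subunit at the junction of the membrane arm and the peripheral arm of complex I, had signals of 6.51, 6.70 and 6.03 in the Pum2 precipitates, against 10.89, 10.99 and 10.63 in IgG and 11.39, 11.51 and 11.18 in input. All 3 Pum2 arrays lay close to the median gene, while IgG lay wholly below input. ND3 differed by -4.43 ± 0.17 in Pum2 over IgG (log2 difference ± SE, n = 3 arrays per group) and by -4.95 ± 0.17 over input, which is 21.5-fold and 30.8-fold lower. It was the gene with the lowest difference over IgG among the 22180, and ranked 2nd from the lowest over input.

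ND2, a subunit of the proton-pumping part of the membrane arm, had signals of 7.11, 7.26 and 6.57 in the Pum2 precipitates, against 11.30, 11.70 and 11.15 in IgG and 11.38, 11.62 and 11.31 in input. IgG and input overlapped, and the Pum2 arrays lay far below both. The difference was -4.41 ± 0.19 over IgG and -4.46 ± 0.19 over input. ND4L, the smallest of the core membrane subunits, had signals of 6.53, 6.54 and 6.13 with Pum2, against 10.76, 10.96 and 10.54 with IgG and 10.82, 10.90 and 10.56 in input. Here too the Pum2 arrays lay near the median gene and the controls overlapped. ND4L differed by -4.35 ± 0.15 over IgG and by -4.36 ± 0.15 over input. In the order of the differences over IgG, the steps from ND3 to ND2 and from ND2 to ND4L were 0.02 and 0.05, less than the SE of each gene.

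CYTB, ND5, ND4 and ND1 followed. CYTB had signals of 9.65, 9.62 and 9.06 in the Pum2 precipitates, against 13.04, 13.07 and 12.89 in IgG and 12.89, 12.94 and 12.93 in input. Its Pum2 arrays lay well above the median gene and far below both controls. CYTB differed by -3.55 ± 0.14 over IgG and by -3.47 ± 0.14 over input (11.8-fold and 11.1-fold lower). ND5, one of the large antiporter-like proton channels, had signals of 9.55, 9.64 and 9.31 with Pum2, against 12.77, 12.71 and 12.65 with IgG and 12.37, 12.55 and 12.38 in input. IgG lay wholly above input for ND5, so its difference was -3.21 ± 0.10 over IgG and -2.93 ± 0.10 over input.

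ND4, another antiporter-like subunit, had signals of 10.31, 10.44 and 9.88 with Pum2, against 13.38, 13.46 and 13.33 with IgG and 13.26, 13.28 and 13.29 in input. ND1, which helps to form the quinone-binding site, had signals of 10.19, 9.997 and 9.81 with Pum2, against 12.89, 13.05 and 12.89 with IgG and 13.01, 13.03 and 12.99 in input. The Pum2 arrays of both genes lay far below the controls, which were close to each other. The differences over IgG were -3.18 ± 0.13 for ND4 and -2.94 ± 0.10 for ND1, 9.07-fold and 7.70-fold lower. In the order of the differences, the steps were 0.80 from ND4L to CYTB, 0.35 from CYTB to ND5, 0.03 from ND5 to ND4 and 0.24 from ND4 to ND1. These steps were not tested, since the genes share all arrays and were chosen with the values known.

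ND6, the transcript from the other strand, had the smallest difference of the 8. Its signals were 6.85, 6.26 and 6.80 in the Pum2 precipitates, against 7.79, 8.07 and 7.82 in IgG and 8.51, 8.53 and 8.21 in input. The 3 groups did not overlap, with Pum2 lowest, IgG between and input highest. ND6 differed by -1.26 ± 0.16 in Pum2 over IgG and by -1.78 ± 0.16 in Pum2 over input, 2.39-fold and 3.44-fold lower. It ranked 221st from the lowest difference over IgG, where the other 7 lay within the lowest 15 genes. The step from ND1 to ND6 was 1.69. Strand and signal level cannot be told apart with 1 transcript from this strand, and their part was not tested. COX1, copied from the strand of the other 7 and with a mean input signal of 13.31, also had a small difference. It was -1.49 over IgG and -1.53 over input, the latter nearer to 0 than that of ND6. COX3, from the same strand as COX1, differed by -3.33 and -3.38.

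**Figure D2:**
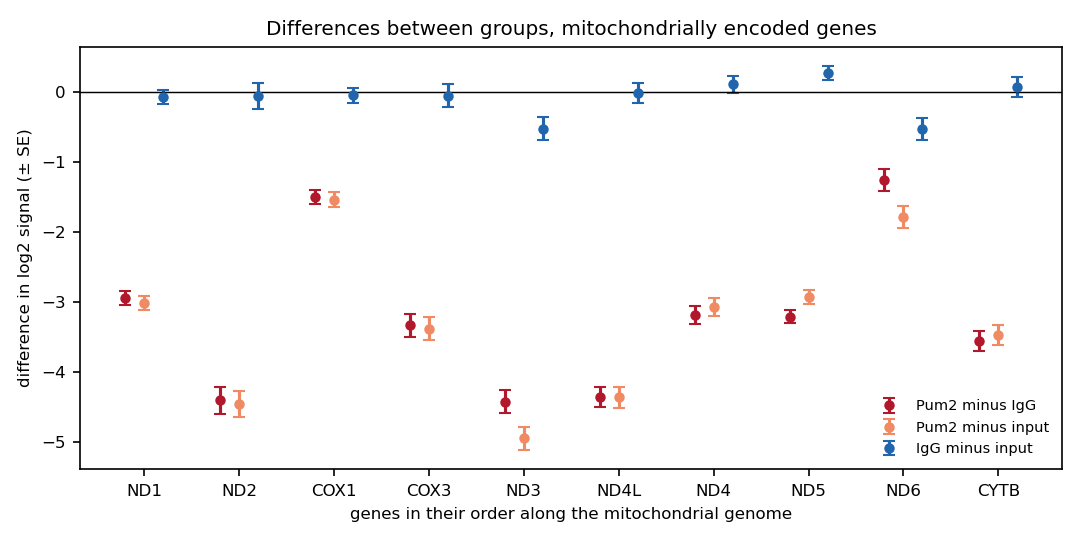
Difference in log2 signal (± SE, n = 3 arrays per group) for Pum2 minus IgG, Pum2 minus input and IgG minus input, for the 10 mitochondrially encoded genes with a row of their own in their order along the mitochondrial genome in RefSeq. Both Pum2 differences lie below -1 for every gene, with ND6 and COX1 nearest to 0, while IgG minus input stays between -0.53 and 0.28.

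The differences did not follow the order of the genes along the mitochondrial genome. ND4L and ND4 are neighbours on the same mRNA, yet their rows differed from IgG by -4.35 ± 0.15 and -3.18 ± 0.13. COX1, the catalytic subunit of cytochrome c oxidase, lies next to ND2 among the measured genes, and its difference was -1.49 ± 0.10 over IgG and -1.53 ± 0.10 over input, against -4.41 for ND2. COX1 had signals of 12.00, 11.72 and 11.59 with Pum2, against 13.24, 13.37 and 13.18 with IgG and 13.32, 13.28 and 13.31 in input. COX3, a further subunit of that enzyme, differed by -3.33 ± 0.16 over IgG, close to CYTB, ND5 and ND4.

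The rows lay at different places on the signal scale of the arrays, which depends on the probes of a row as well as on its RNA. ND2, ND3 and ND4L had mean input signals of 11.43, 11.36 and 10.76. CYTB, ND1, ND4, COX1 and COX3 had mean input signals of 12.81 to 13.31, where the highest gene of the input arrays lay at 13.60 to 13.68. At the other end, ND6 had a mean input signal of 8.42, nearer to the median gene. The part of the place on this scale in the differences between rows was not tested.

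**Figure D3:**
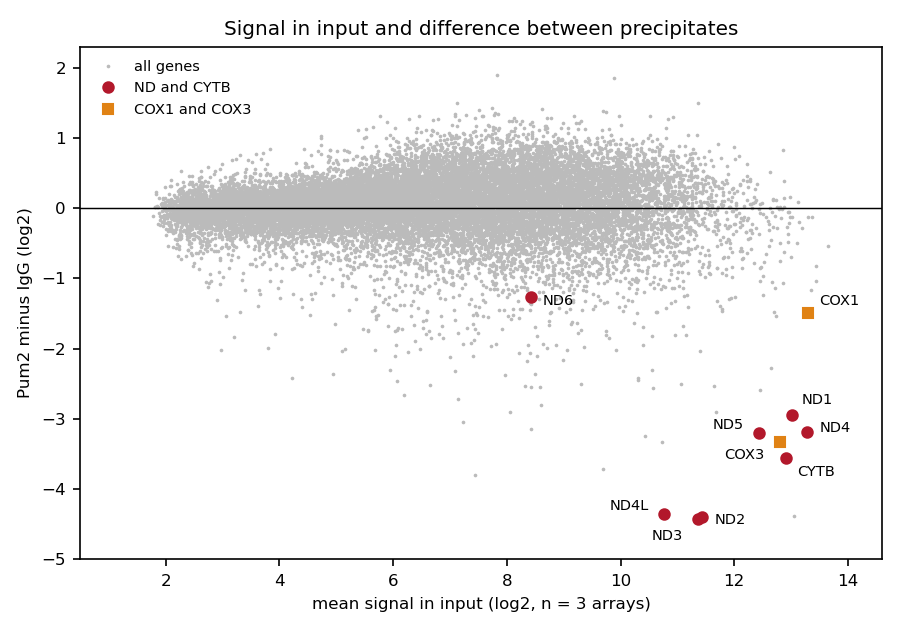
Mean log2 signal in input (horizontal) against the log2 difference of Pum2 minus IgG (vertical) for 22180 genes in grey, ND and CYTB transcripts as red circles, and COX1 and COX3 as orange squares. ND2, ND3 and ND4L lie at the bottom near -4.4, CYTB, COX3, ND5, ND4 and ND1 lie between -3.55 and -2.94, COX1 lies at -1.49, and ND6 lies at -1.26 with a lower signal.

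Most of these transcripts lay close to input in the IgG precipitates. In IgG over input the median difference of the 8 transcripts was -0.03, beside 0.02 over all genes, and the 8 ranged from -0.53 to 0.28. Only ND6 passed the threshold, as lower (-0.53 ± 0.16, 1.44-fold lower, limma adjusted p = 0.0467), where 9.72% of all genes were called lower and 8.25% higher. ND3 was close to the same value without passing (-0.52 ± 0.17, limma adjusted p = 0.057), and so was ND5 in the other direction (0.28 ± 0.10, adjusted p = 0.0821). At an unadjusted p under 0.05 these 3 of 8 would have been called, beside 29.9% of all genes. The groups did not overlap for 4 of 8 transcripts, ND3, ND4, ND5 and ND6, beside 32% of all genes.

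The call of ND6 in IgG over input rested on the setting, since it was lost in 10 of 17 alternatives (limma adjusted p = 0.0135 to 0.137 over all of them, differences of -0.63 to -0.47). It was lost without Pum2 replicate 1 (adjusted p = 0.0503) or 3 (0.0569), without IgG replicate 1 (0.129) or 3 (0.127), and without input replicate 1 (0.13) or 2 (0.137). With no array left out it was lost with the replicate block (limma adjusted p = 0.0741) and with quantile normalization run again (0.0514). The same held with arrays centred on brighter genes (0.0572) and with all rows tested (0.0853). ND3 passed in 6 of 17 alternatives (adjusted p = 0.00602 to 0.178), with differences of -0.61 to -0.42, and among these were the fits without Pum2 replicate 2 or 3. ND5 passed in 4 of 17 alternatives, among them the fit without Pum2 replicate 3 (adjusted p = 0.0461) and quantile normalization run again, where its difference was 0.46 (adjusted p = 0.00806). ND1, ND2, ND4, ND4L and CYTB passed in none of the 17, with limma adjusted p of 0.314 or more. For these 5 the fitted differences of IgG over input, -0.07 ± 0.10, -0.05 ± 0.19, 0.11 ± 0.13, -0.01 ± 0.15 and 0.08 ± 0.14, were each less than 1 SE from 0. That SE is pooled over all 3 groups, so it carries the spread of Pum2 arrays, which lie outside this comparison. Leaving out a Pum2 array likewise changed the adjusted p but no difference of IgG over input. For ND4 the SD was 0.29 with Pum2, 0.07 with IgG and 0.01 in input, and IgG lay wholly above input. For ND2 the SD was 0.36, 0.29 and 0.16. With only the 2 groups compared none of the 5 passed (limma adjusted p = 0.358 to 0.98). A distance under 1 SE therefore does not show that the groups were alike.

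The replicates of the Pum2 precipitate were more spread for these transcripts than those of the controls. The SD over 3 arrays was 0.17 to 0.36 with Pum2 (median 0.31), 0.06 to 0.29 with IgG (median 0.13) and 0.01 to 0.18 in input (median 0.13). These ranges overlap, though each transcript had its highest SD with Pum2. The margin over IgG was small for ND2 (0.36 against 0.29) and ND4L (0.24 against 0.21). The lowest input SDs, 0.01 for ND4, 0.02 for ND1 and 0.03 for CYTB, belong to rows near the top of the signal scale. Over all genes the median SD was 0.10 with Pum2, 0.12 with IgG and 0.11 in input. Pum2 replicate 3 was the lowest of its group for 7 of 8 transcripts, with a median deviation of -0.30 from the group mean where the median over all genes was 0.00. The exception was ND6, for which Pum2 replicate 2 was lowest. COX1 and COX3 were also lowest in Pum2 replicate 3, which made 9 of 10 mitochondrial genes.

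A smaller shift of the same kind was seen in the controls. IgG replicate 2 was the highest of its group for 7 of 8 transcripts and IgG replicate 3 the lowest for 6 of 8. Their median deviations were 0.13 and -0.09, where the medians over all genes were -0.002 and 0.005. In input, replicate 2 was the highest for 7 of 8 and replicate 3 the lowest for 5 of 8. Their median deviations were 0.12 and -0.09, beside 0.0004 and 0.0000 over all genes. The 8 transcripts come from 1 genome and share the arrays, so such counts are not 8 separate observations. Without Pum2 replicate 3, the differences over IgG lay between -4.23 for ND3 and -2.85 for ND1 among the 7 transcripts other than ND6, and ND6 stood at -1.34. All 8 were lower without any single array.

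**Figure D4:**
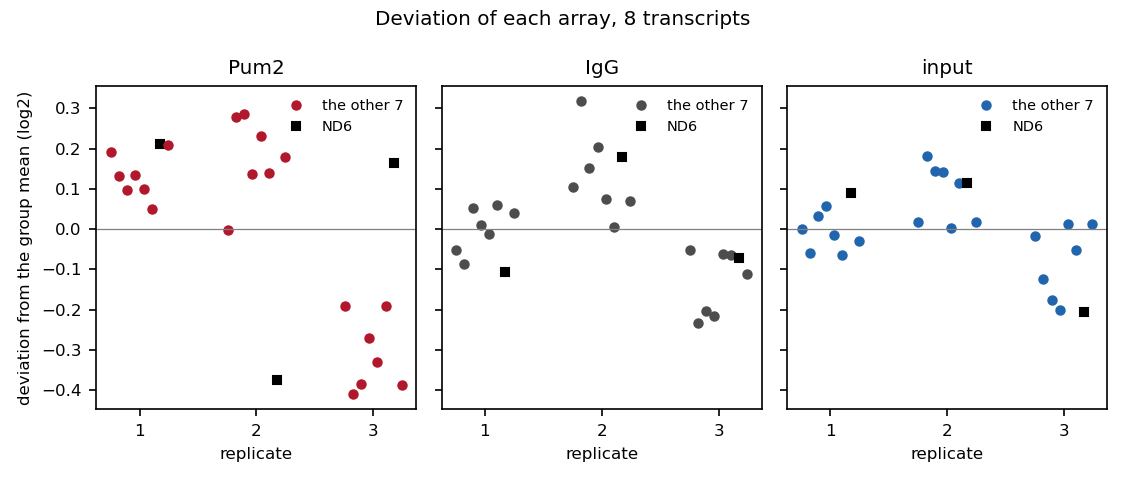
Deviation of each array from its group mean (log2) for the 8 transcripts, with Pum2 on the left, IgG in the middle and input on the right; circles are the 7 transcripts other than ND6 and black squares are ND6. In Pum2 replicate 3 all 7 circles lie below 0, with ND6 above it, and in IgG replicate 2 all 8 points lie above 0.

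Nuclear genes encode the partners of the ND proteins and cytochrome b in complexes I and III. Of 32 measured nuclear subunits of complex I, 10 fell and 6 rose in Pum2 over IgG, with a median of -0.10, beside 11.4% and 19.4% of all genes called lower and higher. In IgG over input 25 of the 32 fell and 0 rose, with a median of -0.69, beside 9.72% and 8.25% of all genes, and 26 fell and 5 rose in Pum2 over input (median -0.76), beside 13.1% and 21.6% of all genes. The lowest in Pum2 over IgG was Ndufc1, an accessory subunit of the membrane arm, with signals of 5.86, 5.99 and 5.89 with Pum2, against 7.48, 7.48 and 7.43 with IgG (-1.56 ± 0.07, limma adjusted p = 7.67e-07). Its difference was smaller than those of the 7 transcripts other than ND6. Ndufs7, an iron-sulphur subunit of the peripheral arm, went the other way with 10.15, 10.38 and 10.17 with Pum2, against 9.37, 9.28 and 9.28 with IgG (0.92 ± 0.08, limma adjusted p = 2.84e-05). Ndufv1, which binds NADH, rose by 0.73 ± 0.11 and Ndufv3 fell by 0.86 ± 0.12 (limma adjusted p = 6.19e-04 and 3.56e-04). In IgG over input Ndufb11 and Ndufa11, accessory subunits of the membrane arm, fell by 1.27 ± 0.12 and 1.15 ± 0.21 (limma adjusted p = 1.99e-04 and 0.00446).

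Of 15 measured assembly factors of complex I, 3 fell and 4 rose in Pum2 over IgG (median 0.10), beside 11.4% and 19.4% of all genes, and 10 fell and 0 rose in IgG over input (median -0.48), beside 9.72% and 8.25%. Nubpl, which delivers iron-sulphur clusters, rose by 0.71 ± 0.09 and Ndufaf2 fell by 0.86 ± 0.13 in Pum2 over IgG (limma adjusted p = 2.81e-04 and 8.41e-04). Of 8 measured nuclear subunits of complex III, the partners of cytochrome b, 2 fell and 4 rose in Pum2 over IgG (median 0.10), and 5 fell and 0 rose in IgG over input (median -0.53), beside the same shares of all genes. Cyc1, which encodes cytochrome c1, rose by 0.61 ± 0.07 in Pum2 over IgG and Uqcrh fell by 0.40 ± 0.06 (limma adjusted p = 8.18e-05 and 0.00105), against -3.55 for CYTB. In Pum2 over input 9 assembly factors fell and 3 rose (median -0.34), and 4 complex III subunits fell and 3 rose (median -0.40). Of all genes 13.1% fell and 21.6% rose there. At an unadjusted p under 0.05 in limma, no complex I subunit, assembly factor or complex III subunit was higher in IgG over input (0, 0 and 0). At that level 28, 10 and 7 of them were lower, and 29.9% of all genes passed in either direction.

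Genes that make and process mitochondrial RNA are themselves nuclear. Of 21 measured, 4 fell and 7 rose in Pum2 over IgG (median 0.13), beside 11.4% and 19.4% of all genes, and 6 fell and 3 rose in IgG over input (median -0.17), beside 9.72% and 8.25%. In Pum2 over input 6 fell and 7 rose (median -0.02), beside 13.1% and 21.6%. Tfam, which packages mitochondrial DNA and starts its transcription, had signals of 8.56, 8.52 and 8.71 with Pum2, against 7.54, 7.70 and 7.85 with IgG (0.90 ± 0.10, limma adjusted p = 1.06e-04). Tfb2m, its partner at mitochondrial promoters, rose by 0.91 ± 0.12 (limma adjusted p = 2.89e-04). Fastk, whose mitochondrial form helps to keep up ND6 mRNA, and Rexo2, an enzyme that degrades short RNAs in mitochondria, fell by 0.71 ± 0.10 and 0.60 ± 0.13 (limma adjusted p = 3.29e-04 and 0.00647). In IgG over input, Tfam and Tefm, an elongation factor of mitochondrial transcription, fell by 0.53 ± 0.10 and 0.50 ± 0.13 (limma adjusted p = 0.00482 and 0.0213). In the same comparison Polrmt, the mitochondrial RNA polymerase, and Lrpprc, which stabilises mitochondrial mRNAs, rose by 0.40 ± 0.07 and 0.47 ± 0.10 (limma adjusted p = 0.00428 and 0.00821).

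**Figure D5:**
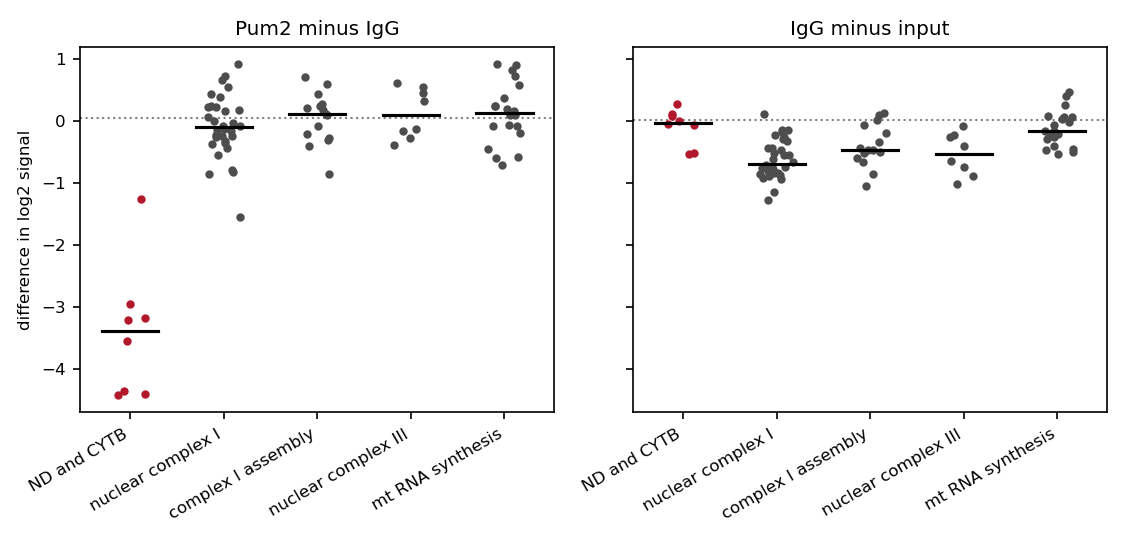
Difference in log2 signal for the ND and CYTB transcripts in red and for 4 lists of nuclear genes in grey, with Pum2 minus IgG on the left and IgG minus input on the right; points are genes, black bars are list medians and the dotted line is the median of all genes. The mitochondrial transcripts stand at a median of -3.38 on the left and -0.03 on the right, while the nuclear complex I genes stand at -0.10 and -0.69.

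The genes with the most similar pattern over the 9 arrays were sought among 10522 others at or above the median level. Provisional gene names were left out, and likeness was the Euclidean distance between profiles centred on their own mean. The nearest to the mean profile of the 8 transcripts was COX3 (distance 0.35). Next were Snord104 (0.57), a small nucleolar RNA that guides rRNA modification, Malat1 (0.84), a noncoding RNA retained in the nucleus, Mir5099 (0.86) and Snora23 (0.88). Snord13, Mir1949, Snora34, Snord65 and Rab26os completed the 10 nearest, at distances of 1.09 to 1.56. Malat1 had a mean signal of 8.67 with Pum2, against 11.57 with IgG and 11.69 in input, and Snord104 had 7.06 with Pum2, against 10.40 with IgG and 10.72 in input. Of the 10, COX3 is the only one encoded in mitochondria, where only COX1 and COX3 could have appeared. No nuclear subunit of complex I or III was among them. Nothing is read from this, since the profile follows the low Pum2 values known when the genes were chosen.

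Markers of other cell types are given for comparison. Of 6 blood genes listed, Hbb-y and Hba-x, embryonic globins of red cells, were measured. The mean signal of the pair was 7.94 to 8.59 over the Pum2 arrays, against 8.43 to 9.15 over IgG and 8.83 to 9.23 over input. For 7 endothelial and pericyte genes the mean signal was 8.34 to 8.47 with Pum2, against 7.87 to 8.10 with IgG and 7.79 to 7.93 in input. Among them Rgs5 went the other way, with 6.93, 6.93 and 6.78 with Pum2, against 7.72, 7.67 and 7.40 with IgG. The median difference over IgG was 0.55 for this list, 0.34 for meninges, 0.26 for ganglionic eminence and 0.24 for cortical precursors and neurons. It was -0.01 for microglia and -0.44 for blood. The part of these cell types in the differences was not tested.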

How the data were processed

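RNA was recovered with an RNA immunoprecipitation kit, purified with phenol/chloroform, amplified as cDNA and hybridised to Mouse Gene 2.0 ST arrays, per the labels' protocols. Per the submitters' processing notes, the deposited log2 values were made by the authors with RMA in Affymetrix Expression Console, whose version and genome build were not given in the sources used here. RMA corrects background, normalizes arrays and summarises probes. Of 41345 rows, 23521 carry 1 symbol, 1814 several and 16010 none here. Each gene was read from its row with the highest mean over 9 arrays. Depth does not apply, and the number of arrays limits precision.

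All 22180 genes were fitted with limma 3.58.1 in R 4.3.3 over 9 arrays in 3 groups (6 residual degrees of freedom), with Benjamini-Hochberg adjusted p under 0.05 as the threshold. Members and lists were chosen with earlier results of these data known. Genes named besides the mitochondrial ones are, per nuclear list, up to 2 highest and 2 lowest called differences with groups that do not overlap (not all are named), and the 10 nearest profiles. Alternatives were a replicate block, fewer groups, a level filter, another prior, 2 scalings, mean over rows, all rows tested and leaving out each array. No sequence was printed for these genes.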

Additional observations from a re-analysis of the deposited data

How the results depend on the processing

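The 8 transcripts were lower in both Pum2 comparisons under all 17 alternatives run, with medians of -3.51 to -3.24 over IgG. Leaving out 1 array gave -3.47 to -3.24. In IgG over input, where 1 transcript was called lower and 0 higher, the number called lower was 2 with only the 2 groups compared, with genes at or above the median level or with a trended robust prior, and 0 with quantile normalization run again, arrays centred on brighter genes or all rows tested. The number called higher was 1 with the level filter, the trended prior and quantile normalization. Without single arrays, 0 to 2 were called lower and 0 to 1 higher. The cause was not tested. Same-numbered arrays of different groups correlated at 0.002 to 0.135 in their deviations, and arrays of different numbers at -0.130 to 0.041. The main fit treats them as unpaired, with the replicate block as an alternative. As a hint of pairing from the data, arrays numbered 2 and 3 correlated best with their own number in each other group. Pum2 and IgG replicates 1 each correlated best with replicate 1 in input (0.053 and 0.025). They did not do so with each other (0.002, against up to 0.041 with other numbers). With the replicate block the number called lower was again 1, but ND3 (-0.52, adjusted p = 0.00602) was called in IgG over input and ND6 (-0.53, adjusted p = 0.0741) was not.

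With all 41345 rows tested, 11356 were called in Pum2 over IgG and 11920 over input, against 6815 and 7686 of 22180 genes. The share of calls that were higher in Pum2 over IgG was 63% over genes as deposited and 42.9% over all rows as deposited. It was 53.5% with quantile normalization run again and 40.7% with arrays centred on brighter genes. The centring moved the median of all genes from 0.043 to -0.082. In Pum2 over input these shares were 62.3%, 44.6%, 55.8% and 49.7%. The counts of 2 complex III genes called lower and 3 assembly factors called lower in Pum2 over IgG ranged from 1 to 4 and from 2 to 5.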

Other observations

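A pair of rows list a mitochondrial symbol together with symbols of other genes and were kept out of the genes for that reason. The row with 3 symbols had signals of 8.36, 8.38 and 7.69 in the Pum2 precipitates, against 12.10, 12.18 and 11.99 in IgG and 12.03, 12.15 and 12.05 in input. The row with 2 symbols had 8.88, 8.75 and 8.20 with Pum2, against 12.63, 12.72 and 12.49 with IgG and 12.72, 12.79 and 12.73 in input. The differences of Pum2 minus IgG were -3.95 and -4.004, between those of ND4L and CYTB, and those of IgG minus input were 0.01 and -0.13. Pum2 replicate 3 was the lowest Pum2 array of both rows.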
